A study of Mus musculus with 4 samples.

Results

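Thymosin beta 4 (Tmsb4x), thymosin beta 10 (Tmsb10), vimentin (Vim), galectin 1 (Lgals1), the S100 genes S100a6, S100a10 and S100a11, and the annexins Anxa1 and Anxa2 were followed through the infarcted mouse heart. These 9 genes were picked by symbol from the 32285 genes of the count tables, and all 9 were among the 4767 genes tested. The hearts came from 12-week-old ICR mice (female Hsd:ICR (CD1) mice per the study's methods) with no transgene or added agent, each after a permanent tie of the left anterior descending coronary artery. One heart was taken on each of days 1, 4, 7 and 14, and 1 frozen section of each was placed on a Visium slide, which captures RNA in a grid of small spots and counts molecules by unique molecular identifier (UMI). A spot is a region that can hold several cells, so fewer cells of a type and less RNA per cell cannot be told apart. All groups carry the ligation and no uninjured heart was analysed here, so a level has no baseline, and day, mouse and section cannot be told apart. The sections were cut where injury was visible. Days are those of the labels, and the study's text is not uniform on the earliest of them.

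The beta thymosins are small proteins that bind actin monomers and hold them in reserve for filament growth. Vimentin is the intermediate filament of fibroblasts, endothelium and leukocytes and is not a filament of adult cardiomyocytes. Galectin 1 is a secreted lectin that binds galactose-bearing glycans. Many S100 proteins, though not all, change shape on binding calcium and then bind partners. S100a10 forms a complex with annexin A2, and S100a11 binds annexin A1. Annexins bind negatively charged membranes in the presence of calcium and take part in membrane repair and traffic. Annexin A1 also acts outside the cell on formyl peptide receptors of leukocytes, and the annexin A2 complex with S100a10 binds plasminogen at the cell surface. Expression of these genes is widely seen in fibroblasts and leukocytes and is low in healthy heart muscle.

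Spots in which hemoglobin genes took over 1% of UMIs were set aside, which left 7503 of 9102 spots with median depths of 5188 to 8799 UMIs per section and 9292678 to 15713779 UMIs in all. In each section the spots were ranked by the share of their UMIs from Myh6 and Myl2, 2 cardiomyocyte genes, and split into 4 groups of equal size (419 to 522 spots), named Q1 for the lowest share to Q4 for the highest. Q1 is thus the part of the section most depleted of cardiomyocyte RNA. Both genes together made up a median of 0.755%, 0.154%, 0.200% and 1.01% of UMIs in the Q1 spots of days 1, 4, 7 and 14, against 2.53% to 2.78% in Q4. Levels are given as CPM, UMIs scaled to a total of 1000000 per library. The heart label held against markers, since 5 other cardiomyocyte genes summed to 37268 to 43616 CPM in Q4 and 8824 to 30793 in Q1. Fibroblast markers summed to 2343 to 41160 CPM in Q1 and 1207 to 1787 in Q4. Macrophage markers ran from 1268 to 7467 CPM in Q1 and from 346 to 525 in Q4. Smooth muscle markers summed to 247 to 1507 CPM in Q1 and 69.1 to 138 in Q4, with both tested markers called higher. Mesothelial markers summed to 7.67 to 254 and 3.95 to 15.4, adipocyte markers to 1.44 to 220.3 and 6.14 to 22.1, and lymphocyte markers to 5.28 to 8.16 and 0.768 to 2.06. The endothelial sum was 985 to 1183 against 987 to 1122, while of its 6 tested markers 1 was called higher and 2 lower. On day 7, Q1 also held 115 spots with fast skeletal muscle RNA, whose markers summed to 4.75 to 20340 CPM in Q1 and 2.85 to 103 in Q4 over the sections.

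Promoter sequence of the 9 genes was looked up because all were called higher in Q1 than in Q4, as were 35.2% of all genes tested. The RefSeq table of mouse promoters (GRCm38.p6) held 7 of the 9, in windows of 300 bases running from 250 before to 50 after an annotated start. Tmsb10 had several windows and each of the others a single one. Matches are counted per gene for these 7 and per window for the background, so both are unlike units. The 7-letter AP-1 motif TGANTCA, read on both strands, was in the windows of 2 of these 7 genes, S100a11 and Anxa2, against 7.808% of 32851 windows of the same length. None of the motifs searched contains another. The windows of S100a11 (chr3:93520246-93520545, plus strand) and Anxa2 (chr9:69453433-69453732, plus strand) are shown 5′ to 3′ because they carry the motif, which stands in capitals.
S100a11: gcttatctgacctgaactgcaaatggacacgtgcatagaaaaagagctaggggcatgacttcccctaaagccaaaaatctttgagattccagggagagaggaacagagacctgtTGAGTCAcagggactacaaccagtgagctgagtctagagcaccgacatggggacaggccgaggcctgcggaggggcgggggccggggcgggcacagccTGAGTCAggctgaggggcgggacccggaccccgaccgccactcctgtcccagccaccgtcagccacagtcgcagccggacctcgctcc
Anxa2: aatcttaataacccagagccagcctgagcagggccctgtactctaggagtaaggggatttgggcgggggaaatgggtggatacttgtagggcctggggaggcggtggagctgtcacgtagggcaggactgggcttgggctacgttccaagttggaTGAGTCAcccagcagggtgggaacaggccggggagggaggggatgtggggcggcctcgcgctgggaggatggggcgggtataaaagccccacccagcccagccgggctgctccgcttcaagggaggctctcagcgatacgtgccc
In S100a11 the motif stood 136 and 38 bases before the annotated start, and in Anxa2 it stood 95 bases before it. The SP1 box GGGCGG was found in the windows of S100a11, Tmsb10, Anxa2 and Tmsb4x, against 35.66% of all windows. TATAAA was found in those of Vim, Anxa2 and Anxa1 (13.62% of all windows), and the TEAD motif GGAATG in that of Anxa1 (14.66%). A match is a run of letters and not a measured binding site.

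Together the 9 genes took 0.604%, 1.14%, 0.951% and 0.375% of all UMIs in Q1 on days 1, 4, 7 and 14. In Q4 the same shares were 0.130%, 0.125%, 0.165% and 0.126%. Q1 was above Q4 in every section, by the least on day 14. Levels below are CPM over the summed spots of a group, in the order of days 1, 4, 7 and 14, each from 1 section. They count the 3′ ends of transcripts, so they are compared for 1 gene across spots and not between genes.

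**Figure D1:**
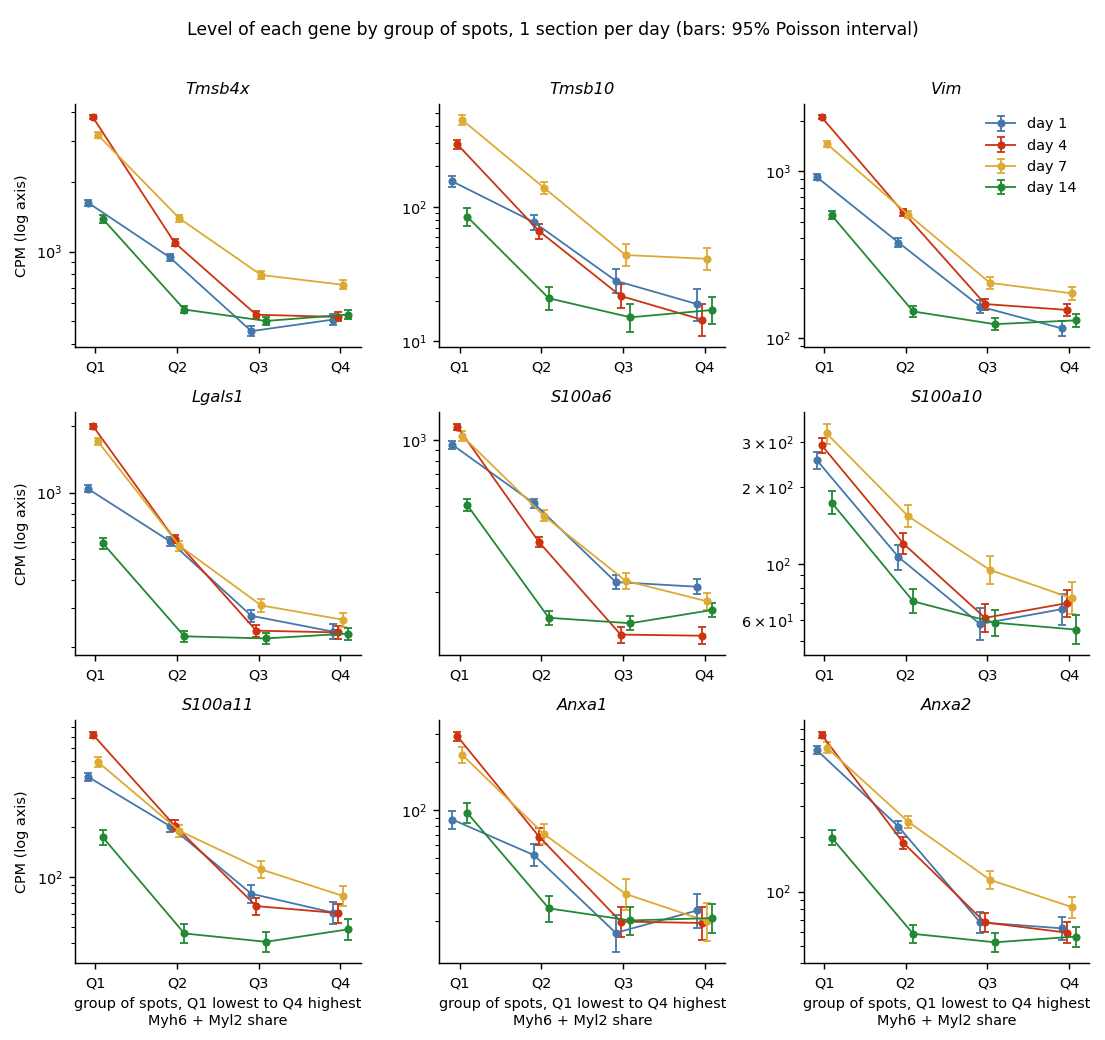
CPM (vertical log axis) of each of the 9 genes in the 4 groups of spots ordered from the lowest (Q1) to the highest (Q4) Myh6 and Myl2 share (horizontal axis), with 1 line for each day's section and bars for 95% Poisson intervals. Every line starts above where it ends, and in most of them Q3 and Q4 lie close together.

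Tmsb4x (ENSMUSG00000049775, GRCm38 chrX:167207093-167209315, minus strand) stood at 1626, 3795, 3188 and 1384 in Q1. In Q4 it stood at 509, 523, 719.5 and 535. Q1 was thus higher in all 4 sections, with folds of 3.19 (95% interval 3.01 to 3.39, counting error only), 7.26, 4.43 and 2.59 in day order. Tmsb10 (ENSMUSG00000079523, chr6:72957347-72958748, minus strand) is the second beta thymosin. Its levels were 154, 291, 441 and 84.5 in Q1 and 18.9, 14.5, 41.1 and 17.1 in Q4. These give 8.15-fold, 20.1-fold, 10.7-fold and 4.93-fold, the widest range of folds of the 9 genes. Tmsb10 shares 336 of its 861 stretches of 31 bases with Gm9844, a near copy that was counted separately and had 0 to 5 UMIs in each summed library, so some of its reads may have been lost to the copy. Its other copy, the pseudogene Gm3788, is not in the count tables.

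Vimentin (ENSMUSG00000026728, chr2:13573927-13582826, plus strand) measured 923, 2109, 1466 and 547 in Q1 and 115, 148, 186 and 128 in Q4. The values of Q1 and Q4 did not overlap, and the folds were 8.06, 14.3, 7.89 and 4.27. Galectin 1 (ENSMUSG00000068220, chr15:78926725-78930465, plus strand) measured 1039.6, 2003, 1704 and 589.7 in Q1. Its Q4 levels were nearly even across days, at 234, 232, 265 and 229.6. The folds of 4.44, 8.62, 6.42 and 2.57 therefore followed Q1.

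All 3 S100 genes lie on chromosome 3. S100a6 (ENSMUSG00000001025, chr3:90612882-90624181, plus strand), which binds calcium and several annexins, was at 951, 1152, 1045 and 503 in Q1 and at 212, 126, 181 and 165 in Q4. S100a10 (ENSMUSG00000041959, chr3:93555080-93564643, plus strand) was at 254, 291, 324 and 174 in Q1 and at 66.4, 70.1, 73.3 and 55.2 in Q4. Its folds of 3.83, 4.15, 4.41 and 3.15 were the most even of the 9 genes, and the intervals of days 1, 4, 7 and 14 all overlapped. Their order depended on the totals: without mitochondrially encoded genes the day 14 fold was 3.76, and day 4 had the lowest. S100a11 (ENSMUSG00000027907, chr3:93520488-93526287, plus strand), whose promoter with 2 AP-1 motifs is shown above, was at 400.5, 717, 492 and 174 in Q1 and at 61.2, 60.8, 77.2 and 48.5 in Q4. It shares 226 and 159 of its 470 stretches of 31 bases with the processed pseudogenes Gm12854 and Gm7665, which are not in the count tables.

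Annexin A1 (ENSMUSG00000024659, chr19:20373428-20390944, minus strand) stood at 87.3, 292, 223 and 96.5 in Q1 and at 23.4, 19.5, 19.97 and 20.9 in Q4. Its Q4 level hardly moved over the days, while the fold was 3.73 on day 1 and 15.0 on day 4, then 11.2 and 4.61. Anxa1 overlaps 1500015L24Rik on the opposite strand, and whether strand was used in counting is not given in the sources used here. Annexin A2 (ENSMUSG00000032231, chr9:69453620-69491795, plus strand), whose promoter is shown above with S100a11, was at 608, 738, 629 and 199 in Q1 and at 62.6, 59.3, 82.2 and 56.4 in Q4. Its folds were 9.71, 12.5, 7.66 and 3.53, and the intervals of days 1 and 4 overlapped for Anxa2 (8.33 to 11.4 and 10.9 to 14.4) but not for Anxa1. Anxa2 overlaps Mir3109 on its own strand and Gm16144 on the other.

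**Figure D2:**
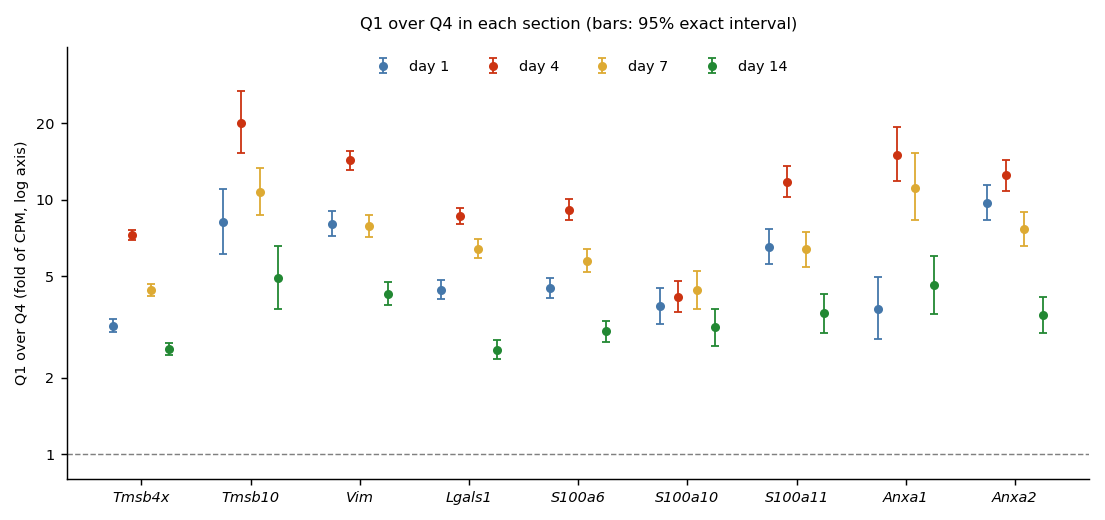
Fold of CPM in Q1 over Q4, on plain totals (vertical log axis, dashed line at 1), for each gene (horizontal axis) in the section of each day, with 95% exact intervals. Every point lies above 1, day 4 is the top point for 8 of the 9 genes, and S100a10 has the narrowest range, from 3.15 to 4.41.

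Across the 4 sections all 9 genes were higher in Q1 than in Q4 by edgeR's quasi-likelihood test on summed UMIs with the section as a block, and 35.2% of all 4767 genes tested were called higher (32.4% were called lower). The members' median log2 fold change was 2.28, beside 0.05 over all genes tested. The 9 genes were chosen with earlier results of these data known, so their contrast with all genes is a description only. Tmsb10 had the largest estimate of the 9, 2.86 ± 0.26 (SE, n = 4 sections, edgeR adjusted p = 1.34e-05), at rank 98 of 4767 from the top. S100a10 had the smallest, 1.54 ± 0.11 (edgeR adjusted p = 6.11e-06), at rank 389. Between them came Vim at 2.56 ± 0.24, Anxa2 at 2.51 ± 0.25, Anxa1 at 2.48 ± 0.28 and S100a11 at 2.28 ± 0.25. S100a6 at 1.96 ± 0.22, Lgals1 at 1.93 ± 0.23 and Tmsb4x at 1.62 ± 0.19 followed. The highest adjusted p of the 9 was that of Lgals1, 4.79e-05. The model was fitted to the 16 libraries of all groups, with 9 residual degrees of freedom, so Q2 and Q3 also entered the estimate of spread. Each section is of another day and mouse, so these p-values rest on a spread over sections that also differ in time.

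The calls stood beside a wide change in what the spots held. Mitochondrially encoded genes took 8.73% to 29.8% of UMIs in Q1 and 27.1% to 33.2% in Q4, and the fibroblast, macrophage, smooth muscle, lymphocyte and other marker sums given above differed between the same spots. Their part in the result was not tested in this comparison. With the mitochondrial genes left out of the totals and the ranking, the members' estimates ran from 1.69 to 2.98. The folds of single sections moved as well. Tmsb4x on day 4 went from 7.26 to 5.76 and Anxa1 on day 14 from 4.61 to 6.49. Day 4 kept the highest fold for every member but S100a10. On the scale of plain totals the median gene was 0.55 higher in Q1, and the members' estimates ran from 2.03 to 3.36. The folds of single sections are on plain totals, while the tested estimates use TMM factors. In day order these factors were 1.27, 1.48, 1.41 and 1.01 in Q1 and 0.954, 0.872, 0.976 and 0.858 in Q4. The folds of single sections are thus larger than with these factors, by unlike amounts per day. The order of days was not recomputed with them.

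Moving 1 group up, toward more cardiomyocyte RNA, the 9 genes stood lower. In Q2 Tmsb4x was at 945, 1094, 1391 and 563 and Vim at 374.5, 568, 551 and 145. On days 1, 4 and 7 every gene was still above its Q4 level, and on day 14 Q2 lay between 0.92-fold and 1.29-fold of it. Against Q4, 7 of the 9 were called higher, beside 3.34% of all genes tested (0.189% lower). Tmsb10 again led with 1.48 ± 0.25 (edgeR adjusted p = 0.0194), while Tmsb4x at 0.66 ± 0.19 (adjusted p = 0.0699) and Lgals1 at 0.88 ± 0.23 (adjusted p = 0.0506) missed the threshold. This comparison was fragile: leaving out the section of day 1, of day 4 or of day 7, dropping the section block, fitting only the compared groups or dropping spots under 1000 UMIs each left 0 members called. The estimates stayed above 0 for all 9 genes in every one of 16 alternatives.

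In Q3 none of the 9 was called, nor any of the 4767 genes (0.00% higher and 0.00% lower in edgeR, 0 higher in DESeq2). At an unadjusted p under 0.05, edgeR had 12 genes higher and 15 lower. That is far fewer of the 4767 genes than this threshold would pass by chance, so the test was cautious here. The lack of calls thus does not show that Q3 equals Q4. The members' estimates ran from 0.04 for Tmsb4x, with an approximate 95% interval of -0.32 to 0.40, to 0.30 for Tmsb10, with -0.20 to 0.81. For all 9 genes the upper bound lay below the estimate for Q2, as for Vim (upper bound 0.66, Q2 estimate 1.27) and S100a10 (0.30 and 0.63). The Q2 estimates carry approximate 95% intervals of their own. The intervals of Q2 and Q3 parted for Tmsb10, Vim, S100a10 and Anxa2. They overlapped for Tmsb4x (Q2 from 0.29, Q3 up to 0.40), Lgals1, S100a6, S100a11 and Anxa1. Q2 was not tested against Q3. In single sections, on plain totals, some folds of Q3 over Q4 went beyond counting error. On day 7 this fold ran from 1.07 for Tmsb10 to 1.49 for Anxa1. Its interval lay above 1 for every member but Tmsb10, as for S100a11 (1.44, 1.201 to 1.735). On day 1 it lay above 1 for Tmsb10, Vim, Lgals1 and S100a11, and on day 4 for Tmsb10 alone. It lay below 1 for Tmsb4x on days 1 and 14 and for S100a6 on day 14. The tested estimates use TMM factors instead of plain totals. These factors were 0.891 in Q3 and 0.954 in Q4 on day 1, and 0.815 and 0.858 on day 14. Whether the folds of single sections stay beyond counting error with these factors was not tested.

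How the 9 genes ranked over days depended on how the spots were chosen. In Q1, 7 of the 9 had their highest level on day 4, Tmsb10 and S100a10 had theirs on day 7, and 8 had their lowest on day 14, the exception being Anxa1. Anxa1 on days 1 and 14 did not part by counting error (ratio 0.91, 0.75 to 1.10). Nor did S100a10 on days 4 and 7 (1.48 to 1.90 and 1.62 to 2.14, each over day 14). Without mitochondrially encoded genes or without the hemoglobin filter, 7 genes were lowest on day 14, since Tmsb4x was then lowest on day 1. Yet Q1 of day 14 was a mixture. The 10% of its section's spots lowest in Myh6 and Myl2 had a median Myh6 and Myl2 share of 0.211% and 41061 CPM of fibroblast markers, while the next 10% had 1.44% and 6664. In that lowest 10% of day 14 the 9 genes took 1.34% of UMIs, and in the next 10% they took 0.289%. The corresponding values of day 4 were 1.46% and 1.12%.

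In the lowest 10% of spots Tmsb4x measured 1823, 5098, 3269 and 4865 over the 4 days, so that day 14 stood close to day 4 rather than below day 1. Vim measured 1186, 2677, 1489.6 and 1945 there. S100a6 measured 1125, 1466, 982 and 1879, and S100a10 339, 360.0, 329.8 and 557, which put both at their highest on day 14. The intervals of S100a6 on day 14 (1729 to 2039) and day 4 (1393 to 1541) did not overlap. None of the 9 had its lowest level on day 14 among these spots: 6 had it on day 1 and 3 on day 7. On day 7, Q1 held 115 spots with skeletal muscle RNA, and these ranks were not recomputed without them. Leaving them out took the day 7 fold of Vim in Q1 over Q4 from 7.89 to 9.67, and the folds of the other members rose too.

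A fixed limit also changed the order of days. Spots with under 0.5% of UMIs from Myh6 and Myl2 numbered 62, 337, 407 and 176, and in them the 9 genes together took 0.806%, 1.29%, 0.966% and 1.40% of UMIs. Tmsb4x was at 1901, 4372, 3262 and 5054 and Anxa1 at 105, 349.5, 222 and 424. Both were highest on day 14, as were S100a6 and S100a10, while Vim, Lgals1 and S100a11 were highest on day 4, Tmsb10 on day 7 and Anxa2 on day 1. For Anxa2 the levels were 898, 833, 638 and 844, and the intervals of days 1, 4 and 14 overlapped. Fibroblast markers in these spots summed to 2777 CPM on day 1 and to 41237 to 42088 on the other days. Macrophage markers were at 1622 on day 1 and at 8880, 5530 and 9435 afterwards. With 1 section a day, none of these differences between days has a replicate, and the intervals cover counting error only. The day 14 spots were also shallow, with a median of 1227.5 UMIs against 5999 on day 4, and the part of depth was not tested.

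**Figure D3:**
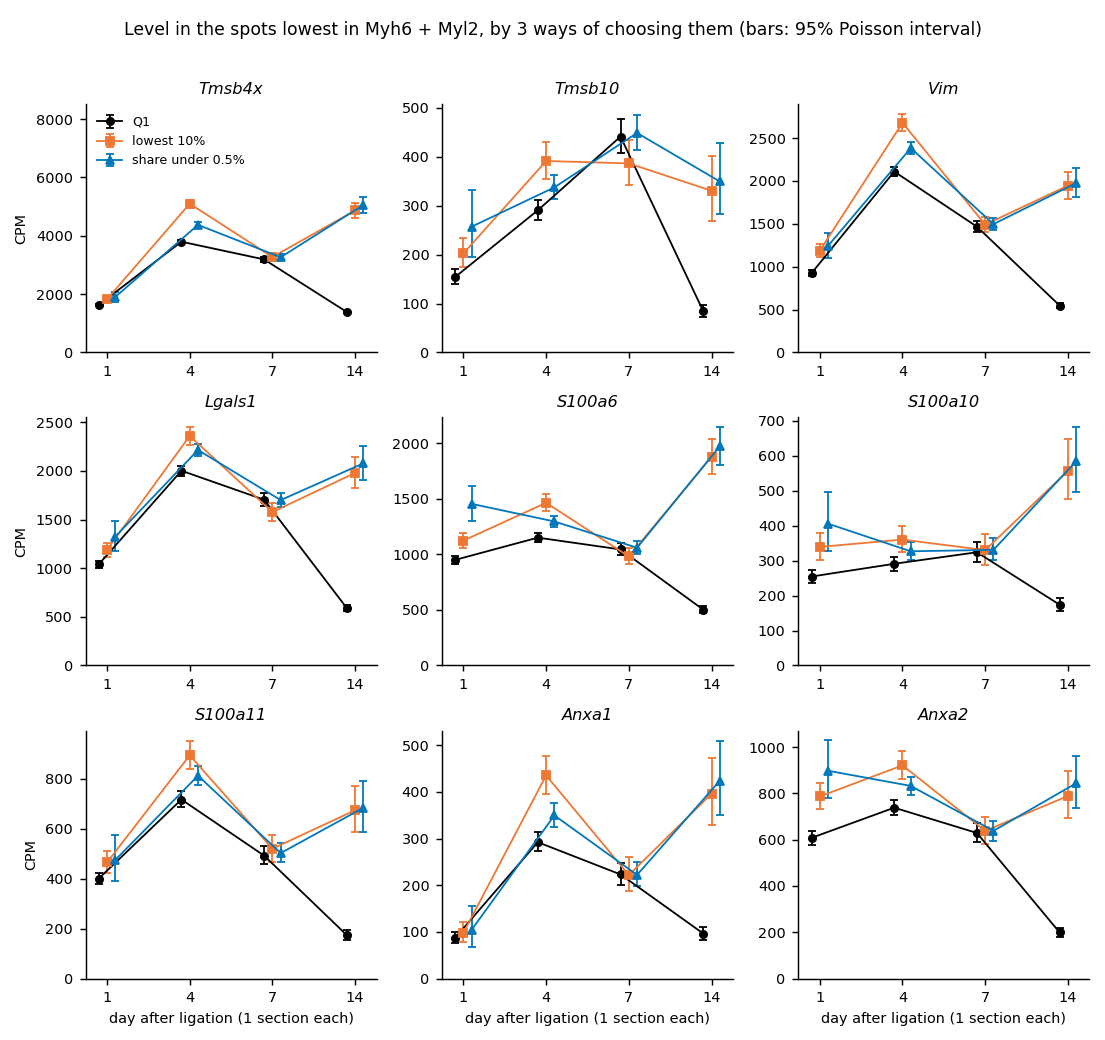
CPM (vertical axis, from 0) of each gene by day after ligation (horizontal axis) in Q1 (black circles), the lowest 10% of spots (orange squares) and the spots with under 0.5% Myh6 and Myl2 UMIs (blue triangles), with 95% Poisson intervals. The 3 choices lie close together on day 7 and part on day 14, where Q1 falls for all 9 genes and the other choices are higher than on day 7 for every gene but Tmsb10 (387 on day 7 and 331 on day 14 in the lowest 10% of spots, 449 and 349.6 under the limit).

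Spots of the same group differed among themselves. On day 4 the level of Tmsb4x in single spots of Q1 had a median of 3802 CPM and a 90th percentile of 6239. On day 14 the median was 1499 and the 90th percentile 6393. The 90th percentiles of both days lay close together, while the median of day 14 was well below that of day 4. The Q1 spots had a median depth of 6524.5 UMIs on day 4 and 2329.5 on day 14. Levels of single spots thus carry more counting error on day 14, which widens their spread. The part of depth in these percentiles was not tested. In Q4 the medians were 490.5 and 492.

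Within Q1, spots were further split at the section's median share of 8 fibroblast markers and of 9 macrophage markers, and the sums of the 4 combinations were tested with both splits in 1 model. Rich and poor are thus relative to each section. Fibroblast markers took 0.342% and 0.404% of UMIs in the rich spots of day 1, but 2.30% and 2.93% in the poor spots of day 4. Macrophage markers took 0.204% and 0.234% in the rich spots of day 1, and 0.311% and 0.528% in the poor spots of day 4. None of the 9 genes was called between fibroblast-rich and fibroblast-poor spots, beside 2.08% of the 4751 genes tested called higher there and 0.716% called lower. Their estimates lay between 0.13 ± 0.22 for S100a10 and 0.58 ± 0.25 for Tmsb10. At an unadjusted p under 0.05, 493 genes were higher in the fibroblast-rich spots, and Tmsb10, Lgals1, S100a6 and Anxa1 were among them. DESeq2 also called 0 of the 9.

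Between macrophage-rich and macrophage-poor spots, Tmsb4x and Anxa1 were called higher in the rich ones, beside 4.50% of all genes called higher and 5.01% called lower. On the log2 scale Tmsb4x was 0.74 ± 0.20 higher (edgeR adjusted p = 0.0307) and Anxa1 0.80 ± 0.23 higher (edgeR adjusted p = 0.0408). The other 7 had estimates from 0.42 to 0.57 and were not called. In the fibroblast-poor spots of day 14, Tmsb4x went from 631 CPM in macrophage-poor spots to 3226 in macrophage-rich ones. In the fibroblast-rich spots it went from 2464 to 4521. On day 1 the same steps were from 1372 to 1779 and from 1419 to 2058, so that macrophage-rich spots were higher in all 8 pairs of Tmsb4x. Anxa1 was higher in 7 of 8 pairs, the exception being the fibroblast-rich spots of day 7, with 331 in macrophage-poor and 250 in macrophage-rich spots. Such counts did not set the called genes apart. S100a11, not called, was also higher in all 8 pairs, and Tmsb10, Vim, S100a6 and Anxa2 in 7 of 8. On day 14, fibroblast-poor, macrophage-rich spots and fibroblast-rich, macrophage-poor spots numbered 33 each, the latter with 6 Anxa1 UMIs. The calls of Tmsb4x and Anxa1 were both lost on leaving out the section of day 4, 7 or 14 (edgeR adjusted p = 0.0696 to 0.203 over both genes). They were also lost without the section block, and with spots under 1000 UMIs left out. The split did not hold the fibroblast markers fixed. In the fibroblast-poor spots of day 14 they took 0.22% of UMIs in macrophage-poor spots and 1.03% in macrophage-rich ones. Among fibroblast-poor spots their share also rose along this step on days 4 and 7 and fell on day 1. Among fibroblast-rich spots it rose on days 1 and 14 and fell on days 4 and 7. The part of these shares in the levels above was not tested. The 4 combinations also differed in depth and in cardiomyocyte share, and the part of either was not tested. On day 14 the median was 7536 UMIs in spots poor in both marker lists and 1174.5 in spots rich in both.

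In all, 4 pairs of the 9 genes were compared as ratios of UMIs in the same spots: both thymosins, both annexins with their S100 partners, and Lgals1 with Vim, for which no shared role is implied. Such a ratio is free of the total, though it still depends on how well each transcript is captured. Tmsb10 to Tmsb4x was 0.095, 0.077, 0.138 and 0.061 in Q1 and 0.037, 0.028, 0.057 and 0.032 in Q4. The ratio was higher in Q1 of every section and the 95% intervals did not overlap. Anxa2 to S100a10 was 2.39, 2.54, 1.94 and 1.15 in Q1 and 0.943, 0.846, 1.12 and 1.02 in Q4. The intervals of this pair parted on days 1, 4 and 7 and overlapped on day 14. Lgals1 to Vim ran the other way in every section, with 1.13, 0.950, 1.16 and 1.08 in Q1 and 2.05, 1.57, 1.43 and 1.79 in Q4.

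Anxa1 to S100a11 was the pair without a common direction. In Q1 the ratio was 0.218, 0.407, 0.453 and 0.555, and in Q4 it was 0.382, 0.320, 0.259 and 0.431. It was lower in Q1 on day 1 and higher on the other days, with intervals that parted on days 1 and 7 alone.

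**Figure D4:**
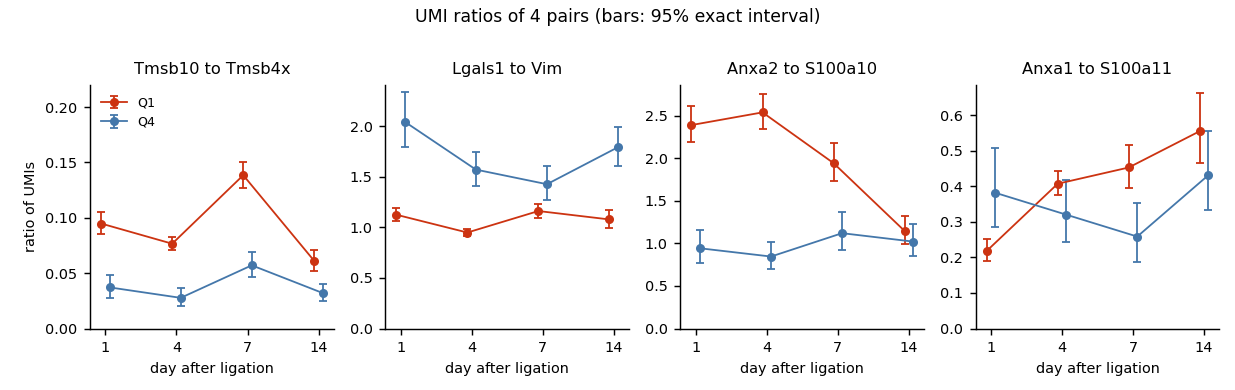
Ratio of UMIs (vertical axis, from 0) of 4 gene pairs by day after ligation (horizontal axis) in Q1 (red) and Q4 (blue), with 95% exact intervals. Tmsb10 to Tmsb4x and Anxa2 to S100a10 are higher in Q1 of every section, Lgals1 to Vim is lower in every section, and the lines of Anxa1 to S100a11 cross between days 1 and 4.

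Relatives of the 9 genes were taken from lists by family and role, and those with at least 1000 UMIs were tested. The counts below stand beside 35.2% of all 4767 genes tested called higher in Q1 than in Q4 and 32.4% called lower. Of 10 other annexins 5 were tested and all 5 were higher in Q1, with a median log2 fold change of 1.20. Anxa3 led with 1.66 ± 0.18 (edgeR adjusted p = 3.11e-05), and Anxa6, an annexin with a doubled core, was last with 0.30 ± 0.13 (edgeR adjusted p = 0.0488). All 5 stood below the estimates of Anxa1 and Anxa2. Of 12 other S100 genes 5 were tested, 4 were higher and 1 was lower. S100a9, a neutrophil gene, was 3.80 ± 0.55 higher on the log2 scale, with 187, 22.5, 33.3 and 78.2 CPM in Q1. S100a1, the cardiomyocyte S100 protein, fell by 1.28 on the log2 scale (edgeR adjusted p = 0.00164). Neutrophil markers summed to 13.4 to 72.3 CPM in Q1 and 1.72 to 2.69 in Q4, with Ly6g at 0 in all 16 libraries.

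Among 8 other galectins 5 were tested, with 3 higher and 1 lower. Lgals3, a galectin of activated macrophages, was 4.69 ± 0.36 higher on the log2 scale, from 2.85 to 19.2 CPM in Q4 to 60.0 to 791 in Q1. Lgals4 fell by 2.16 on the log2 scale (edgeR adjusted p = 0.000135). Of 11 other intermediate filament genes and linkers 4 were tested and 3 were higher, led by nestin at 2.22 ± 0.48. Desmin, the intermediate filament of muscle, was not called, at 0.28 ± 0.28 (edgeR adjusted p = 0.383). Its Q1 levels of 3398, 1629, 802 and 793 spanned a far wider range than its Q4 levels of 816 to 1049.9, with day 1 at the top.

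The actin group held cytoplasmic actin genes together with monomer-binding and filament-handling genes that share their substrate with the thymosins. Of 19 listed 14 were tested, 11 were higher and 1 was lower, and the median was 1.49. On the log2 scale Capg, a capping protein of macrophages, was 2.94 ± 0.35 higher and Arpc1b, a subunit of the Arp2/3 complex, 2.15 ± 0.22. Gelsolin (Gsn), which severs and caps filaments, fell by 1.97 on the log2 scale (edgeR adjusted p = 0.00112), and its Q1 levels were 499.5, 317, 578 and 1373 against 1538 to 2194 in Q4. The muscle cofilin Cfl2 was not called, at -0.43 ± 0.23 (edgeR adjusted p = 0.113). Of 10 partners of the annexins 3 were tested, with 2 higher and 1 not called. The gene not called was Dysf, the dysferlin of muscle membranes, at 0.00 ± 0.18 (edgeR adjusted p = 0.990). The annexin A1 receptors Fpr1 and Fpr2 had 44 and 58 UMIs in all kept spots and were too sparse to test.

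**Figure D5:**
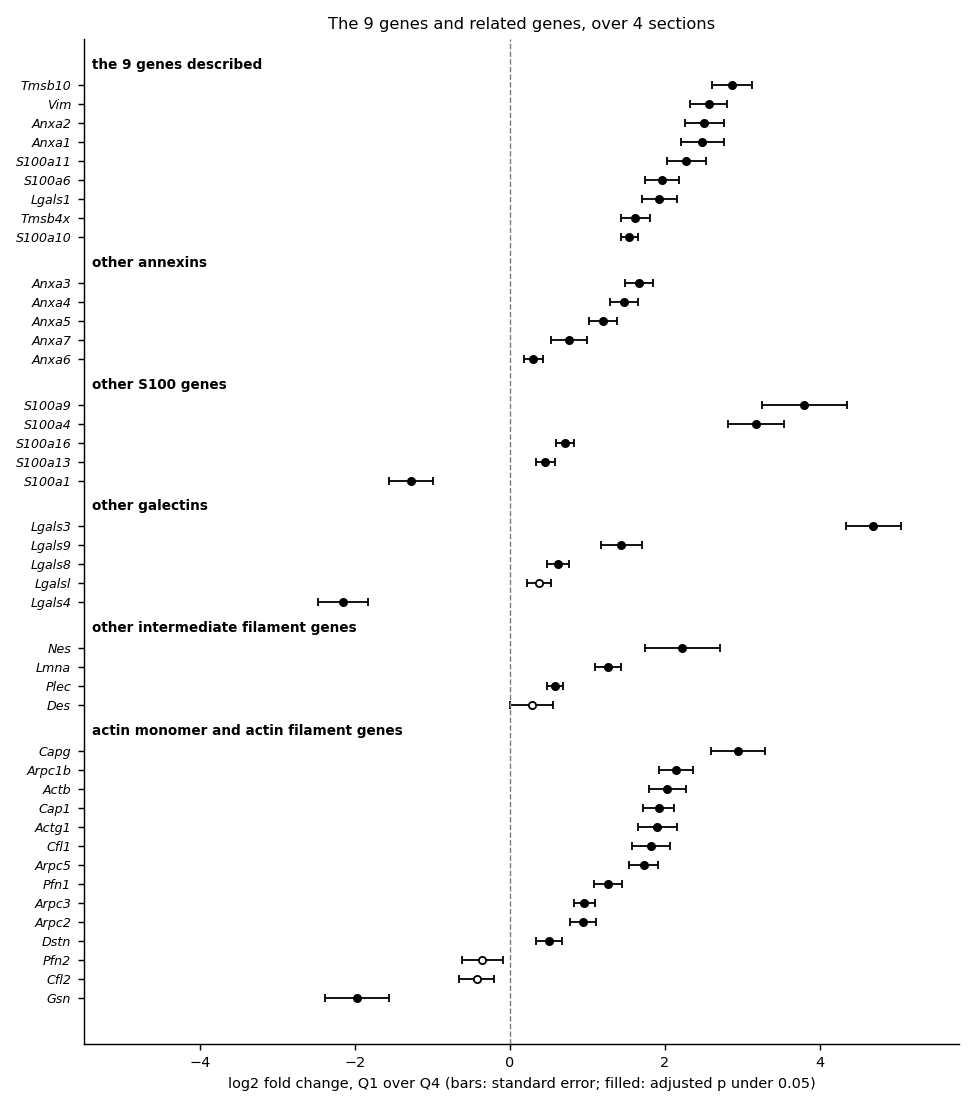
Log2 fold change of Q1 over Q4 (horizontal axis, dashed line at 0) with its standard error for the 9 genes and the tested genes of 5 related lists, filled where the edgeR adjusted p was under 0.05. The 9 genes lie between 1.54 and 2.86, while the related lists run from -2.16 for Lgals4 to 4.69 for Lgals3.

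The 9 genes also tracked each other. Over the 16 summed libraries the Pearson correlations of log2 CPM between members ran from 0.934 for Tmsb4x with S100a6 to 0.989 for Vim with Lgals1. The 16 points share 4 sections and the same ordering of groups, and they differ in depth, so these values describe the libraries. Among 4760 other genes compared, the most alike gene was Pmepa1 for Tmsb4x (r = 0.989), Parva for Tmsb10 (0.992) and Eef1a1 for Vim (0.997). For Lgals1 it was Sh3bgrl3 (0.994), for S100a6 Tpm3 (0.989), for S100a10 Ptma (0.985) and for S100a11 Cap1 (0.992). For Anxa1 it was Necap2 (0.987) and for Anxa2 Litaf (0.993). Pmepa1 went from 34.7, 35.0, 59.1 and 32.6 in Q4 to 147, 406, 442 and 125 in Q1.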

How the data were processed

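Visium sections of 4 mouse hearts were measured, 1 per day (days 1, 4, 7 and 14 per the labels; a passage of the study's text gives day 2 for the earliest). The authors aligned and counted reads with Space Ranger 1.3.0 on mm10 and used Seurat 4.1.1, per the labels, and the deposited matrices hold raw UMI counts per gene and spot, unfiltered beyond spots under tissue. Spots with over 1% hemoglobin UMIs (8 genes) were removed. Counts of the remaining spots were summed per section and group of spots (Q1 to Q4, 16 libraries) and tested with edgeR 4.0.16 (TMM factors, robust quasi-likelihood, section as block, Benjamini-Hochberg over genes with at least 1000 UMIs without Myh6 and Myl2). DESeq2 1.42.0, other filters, rankings, depths and sections left out were alternatives. The procedure was tested on simulated data in which few genes changed. That setting is unlike the wide change between Q1 and Q4, so the simulation does not cover it. Intervals of levels, folds and ratios are 95% exact Poisson or binomial ones and cover counting error only. Standard errors were worked back from the log2 fold change and the F statistic of the edgeR test. The approximate 95% intervals of the tested estimates are normal ones based on these standard errors. Total counts were 10983077 to 17315715 UMIs per section as deposited. The sections share 1332 barcodes, none with the same counts, as slides reuse barcodes.

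Gene positions are from the GENCODE annotation of GRCm38. The 9 genes and all lists were chosen with earlier results of these data known. Beside the 9, the text names the highest and lowest gene of each list (up to 2 more of long lists) and the most alike gene of each member; genes outside this rule (Fpr1, Fpr2, Ly6g) were named after their values were seen. No test was run between days, since each has 1 mouse. The list of annexin partners is reported in part, and 1 gene of it is not reported here.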

Additional observations from a re-analysis of the deposited data

Results flagged for a closer look

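The ratio of Anxa1 to S100a11 UMIs moved in opposite directions between days. In Q1, the spots with the lowest Myh6 and Myl2 share, it was 0.218, 0.407, 0.453 and 0.555 in the sections of days 1, 4, 7 and 14. In Q4, the spots with the highest share, it was 0.382, 0.320, 0.259 and 0.431. Q1 was thus below Q4 on day 1 and above it in the other 3 sections. The difference between days was not tested, because each day has 1 section. The 95% counting intervals of Q1 and Q4 overlapped on days 4 and 14.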

How the results depend on the processing

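The call that all 9 genes were higher in Q1 than in Q4 held in 153 of 153 values over 17 alternatives. Counts over all genes moved: plain totals in place of TMM factors gave 2765 genes higher and 834 lower in that comparison (1679 and 1546 in the text), and a minimum of 10 UMIs per gene gave 3634 and 3118. For Q2 against Q4 (159 genes and 7 members higher), DESeq2 gave 377 genes, plain totals 56 genes and 3 members, a minimum of 10 UMIs 332 genes, no section block 0 genes and 0 members, only the 2 compared groups 19 genes and 0 members, spots of at least 1000 UMIs 30 genes and 0 members, no skeletal muscle spots 48 genes and 4 members, no mitochondrial genes 381 genes, the 5 other cardiomyocyte genes for ranking 78 genes and 2 members, and thinning to 1000 UMIs 86 genes. Leaving out each section gave 0 to 562 genes and 0 to 9 members (0 without day 1, 4 or 7, and 9 without day 14). For Q3 against Q4, fitting only the 2 compared groups gave 14 genes. Between fibroblast-rich and fibroblast-poor spots (99 genes), DESeq2 gave 151 genes, plain totals 154, no hemoglobin filter 157, no section block 0, and leaving out a section 0 to 144 (144 without day 1, 32 without day 4, 0 without day 7 and 49 without day 14). Between macrophage-rich and macrophage-poor spots (214 genes, 2 members), plain totals gave 393 genes, a minimum of 10 UMIs 406, no section block 0 genes and 0 members, spots of at least 1000 UMIs 134 genes and 0 members, no mitochondrial genes 1 member, and leaving out a section 58 to 276 genes and 0 to 2 members (0 without day 4, 7 or 14). For Q3 the sign turned for Anxa1 (-0.0046) and Tmsb4x (-0.032) with plain totals, for S100a10 (-0.0057) and Anxa1 (-0.080) without day 7, and for S100a10 (-0.0041) with thinned spots. Over the sections left out in turn these estimates reached 0.14 for S100a10 and 0.21 for Anxa1. Between fibroblast-rich and fibroblast-poor spots it turned for S100a10 without day 14 (-0.10), against up to 0.32 without another section. The number of the 9 genes highest on day 4 was 7 in Q1 and in the lowest 10% of spots, 6 without skeletal muscle spots and 3 in spots under the fixed 0.5% limit (the 10% and the limit were chosen after seeing the data). The cause of these changes was not tested. Spots of 1 section were paired by the section block, and the values without it are given above. No paired analysis was possible between days because each day has 1 section of another mouse.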
